A study of Mus musculus with 6 samples.

Results

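Rasal3, Was, Dock2, Vav1, Coro1a, Nckap1l, Arhgap30, Rac2, Fermt3 and Lcp1 encode regulators of Ras, of Rac or of the actin cytoskeleton that are found mainly in blood cells. Which cells of the brain carried their RNA was not tested. The 10 genes were chosen by name, with their differences between genotypes on these same arrays already known, so those differences are given as a description, and nothing is read from the fit over all genes for them. They were covered by 16 probes with 1 spot each, and all 10 genes were among the 24932 genes with a probe well above background on every array of at least 1 genotype. The arrays held RNA of brainstem and cerebellum from mice aged 16 weeks, in 3 samples labelled MSA transgenic and 3 labelled wild type. Both genotypes had the same mixed background of the strains C57BL/6, 129 and C3H. The labels do not spell out MSA, do not name the transgene or its promoter, and give no sex. They also do not say whether the samples of a genotype were separate animals, so an SD measures only the spread between these samples. A standard error (SE) here is the moderated one of the fit over all genes. It draws each gene's variance towards a value shared by all genes, and can exceed what the gene's own SDs give. In a bulk extract such as this, more cells of a type and more RNA per cell cannot be told apart.

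Ras and Rac are small GTPases that are active when bound to GTP. Exchange factors such as the Vav and Dock proteins load them with GTP, and GTPase-activating proteins switch them off. Active Rac drives the WAVE complex and active Cdc42 drives WASP, both of which switch on the Arp2/3 complex to branch actin filaments. Blood cells carry their own version of many of these parts beside the forms that most cells use, and microglia, the resident macrophages of the brain, need them to extend processes, migrate and engulf.

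Wild-type replicate 1 stood apart from the other arrays. It was alone on slide 1, while the other 5 arrays shared slide 2, and the 75th percentile of its signal was 405.7 intensity units against 535.0 to 609.2 on the others. Its levels correlated with those of the others at 0.974 to 0.978 across genes, against 0.991 to 0.996 within slide 2, and 64.8% of its probes lay well above background against 68.6% to 71.7%. Over 5148 transcripts with several probes, the probe farther from the transcript's end was compared with the nearer one, relative to the slide 2 wild-type arrays. It was lower by over 1 log2 unit for 3.24% of transcripts on this array and for at most 0.447% on any other. The median difference on this array went the other way, with the farther probe higher by 0.083. The slide 2 wild-type arrays are themselves the reference, so their own shares are small in part by construction. Differences of the 10 genes and of the gene lists are therefore given over all 6 arrays and again within slide 2, where 3 MSA transgenic arrays stood against 2 wild-type arrays. Markers of the labelled tissue were present: Pcp2 and Calb1, which mark Purkinje cells, averaged log2 levels of 7.29 and 6.21 in MSA transgenic and 7.43 and 6.36 in wild-type samples, and Gabra6, a granule cell receptor subunit, averaged 4.19 in MSA transgenic and 4.47 in wild-type samples. A level here is the log2 of the signal over the array's 75th percentile, so levels compare arrays and not genes.

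Sequences are shown for the probes that carry the largest differences or disagree with another probe of their gene, because each value rests on 1 oligonucleotide of 60 bases. The Rasal3 probe lies at chr17:32528297-32529002 on the minus strand (mm9, per the file headers), and as its genomic span of 706 bases exceeds its length it is split on the genome, as a probe across a splice junction is. The Fermt3 probe lies at chr19:7074257-7076292 on the minus strand and spans 2036 bases. The Nckap1l probe shown is the dimmer of its pair, at chr15:103321946-103322005 on the plus strand, upstream of the brighter one at chr15:103329100-103329159. Of the remaining genes other than Dock2, the probe with the highest mean level lies in 1 unbroken stretch, at chrX:7658779-7658838 (Was, minus strand), chr17:57467307-57467366 (Vav1, plus), chr7:133843289-133843348 (Coro1a, minus), chr1:173339923-173339982 (Arhgap30, plus), chr15:78391452-78391511 (Rac2, minus) and chr14:75630210-75630269 (Lcp1, plus).
Rasal3 probe: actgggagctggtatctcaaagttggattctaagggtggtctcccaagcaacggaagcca
Fermt3 probe: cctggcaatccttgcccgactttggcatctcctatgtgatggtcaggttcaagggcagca
Nckap1l upstream probe: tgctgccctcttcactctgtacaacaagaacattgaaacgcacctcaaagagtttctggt

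Promoters are shown for the members that share a short purine-rich motif near the start site, as the only feature of sequence compared among the members. The RefSeq promoter table (GRCm38.p6), which gives 250 bases before to 50 after each start site, held 8 of the 10 genes in 11 windows. Rac2 and Nckap1l were not matched. The motifs GAGGAAG and AGGAAGT, forms of the core bound by ETS factors such as PU.1 of blood cells, were picked after the promoters were seen and searched on both strands. One or the other stood in 5 of the 11 windows (45.5%), those of Rasal3 (both of its windows), Was, Dock2 and Vav1, against 19.1% of all 32851 windows. The windows of Rasal3 are the same sequence shifted by 1 base, so by gene the count was 4 of 8 members, against 5753 of all 27025 genes. Counted singly, GAGGAAG stood in 4 of the 11 windows (36.4%) against 13.6% of all, and AGGAAGT in 3 (27.3%) against 9.35%. The windows of Coro1a, Arhgap30, Fermt3 and Lcp1 held neither string of letters. Capitals mark the motifs, which overlap in Dock2 and Vav1.
Rasal3, chr17:32403533-32403832, minus strand: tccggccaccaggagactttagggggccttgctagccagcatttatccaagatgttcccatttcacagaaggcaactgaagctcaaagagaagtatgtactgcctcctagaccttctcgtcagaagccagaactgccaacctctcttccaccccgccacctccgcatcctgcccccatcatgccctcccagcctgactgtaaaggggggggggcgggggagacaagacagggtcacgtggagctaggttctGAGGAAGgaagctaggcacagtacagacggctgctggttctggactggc
Was, chrX:8090442-8090741, minus strand, with the motif on the opposite strand: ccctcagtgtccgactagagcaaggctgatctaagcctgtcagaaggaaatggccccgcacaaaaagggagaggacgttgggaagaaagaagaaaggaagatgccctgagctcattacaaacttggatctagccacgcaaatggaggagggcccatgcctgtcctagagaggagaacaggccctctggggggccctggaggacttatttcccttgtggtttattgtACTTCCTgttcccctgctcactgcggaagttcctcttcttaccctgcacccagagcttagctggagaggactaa
Dock2, chr11:34783856-34784155, minus strand: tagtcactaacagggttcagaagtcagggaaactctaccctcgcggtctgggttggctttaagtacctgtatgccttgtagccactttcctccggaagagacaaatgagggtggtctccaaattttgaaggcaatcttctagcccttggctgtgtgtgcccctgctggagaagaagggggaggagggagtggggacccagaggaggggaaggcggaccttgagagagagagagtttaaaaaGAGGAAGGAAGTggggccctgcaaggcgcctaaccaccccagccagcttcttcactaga
Vav1, chr17:57278850-57279149, plus strand: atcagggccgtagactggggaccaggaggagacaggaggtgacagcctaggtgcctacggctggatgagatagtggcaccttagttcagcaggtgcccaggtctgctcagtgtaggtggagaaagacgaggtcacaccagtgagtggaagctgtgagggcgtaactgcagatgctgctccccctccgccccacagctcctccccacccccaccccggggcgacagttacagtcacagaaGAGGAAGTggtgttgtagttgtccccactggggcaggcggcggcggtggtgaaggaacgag
In Rasal3 the motif ran from base 2 to base 8 after the start site, and a second start site 1 base away gave the other Rasal3 window. In Dock2 the first motif began at base -9, in Vav1 at base -11 and in Was at base -24. A match is a description of these letters and does not show that a factor binds there. As the motifs were picked after these promoters were seen, nothing is read from their larger share among the members.

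Over all 6 arrays, Rasal3 had the highest log2 difference of the 10 genes. Fermt3 was higher without wild-type replicate 2 (1.43 beside 1.26 for Rasal3) and without wild-type replicate 3 (1.29 beside 1.22). Rasal3 encodes a GTPase-activating protein that switches Ras off, and is known from T cells and natural killer T cells of the mouse. Its processed signal was 39.8, 34.5 and 40.5 intensity units in the MSA transgenic samples, against 10.8, 15.6 and 14.2 units in the wild-type samples. All 3 MSA transgenic values lay above all 3 wild-type values. The probe was dim: its spot measured 103, 96.1 and 103 units before background subtraction in MSA transgenic samples and 68.6, 76.4 and 74.6 units in wild-type samples, over a local background of 59 units for each MSA transgenic array and 54, 59 and 60 units for the wild-type arrays. It was still well above background on all 6 arrays. Scaled to the array, its log2 level averaged -3.98 ± 0.11 in MSA transgenic and -5.21 ± 0.038 in wild-type samples (SD, n = 3 each), a log2 difference of 1.24 ± 0.089 (SE), or 2.36-fold. Within slide 2 the log2 difference was 1.23. Modelling the background with normexp in place of the scanner's subtraction gave 0.87 with no offset and 0.21 with an offset of 50 units, which is larger than the processed signal of this probe on any array.

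Vav1, the exchange factor for Rac that is phosphorylated below immune receptors, had signals of 331, 344 and 407 units in MSA transgenic samples, against 148, 242 and 212 units in wild-type samples. The groups did not overlap, and the log2 difference was 0.59 ± 0.12 (SE), 0.53 within slide 2 and 0.47 under normexp with the offset. Vav1 was among the members whose difference moved little between these settings.

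Dock2, the Rac exchange factor that lymphocytes need to follow chemokines, was covered by 3 probes. The brightest, at chr11:34127093-34127152, gave 32.6, 28.7 and 32.8 units in MSA transgenic samples, against 21.6, 20.7 and 20.2 units in wild-type samples. After scaling the groups overlapped through wild-type replicate 1, whose log2 level of -4.23 lay beside the -4.22, -4.36 and -4.20 of the MSA transgenic samples. The log2 difference was 0.31 ± 0.16 (SE). It was 0.48 within slide 2, 0.15 under normexp without an offset and -0.067 under normexp with the offset, where its sign turned. A second probe, at chr11:34207651-34207710, was well above background on all 3 MSA transgenic arrays and on none of the wild-type arrays. It thus entered only through the MSA transgenic arrays. Its measured groups overlapped, with a log2 difference of 0.25 ± 0.16 (SE), or 1.19-fold. A floored ratio of means was 1.18-fold, which bounds no single sample. Such a floored ratio sets the mean of the brighter genotype against floored levels of the other. On each array the floored level is the larger of the probe's own level and the lowest level of any probe well above background. The third Dock2 probe was not well above background on any array.

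Arhgap30, a GTPase-activating protein for Rac1 and RhoA, had signals of 43.0, 37.4 and 27.2 units in MSA transgenic samples, against 13.9, 30.2 and 25.7 units in wild-type samples. Its groups overlapped after scaling, since MSA transgenic replicate 3 lay at -4.47 on the log2 scale and wild-type replicates 2 and 3 at -4.22 and -4.38. Its log2 difference of 0.40 ± 0.24 (SE) was 0.21 within slide 2 and -0.029 under normexp with the offset.

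Rac2 is the Rac of blood cells, which also switches on the phagocyte NADPH oxidase. Its signals were 77.9, 90.5 and 96.9 units in MSA transgenic samples, against 34.2, 48.2 and 49.99 units in wild-type samples, with no overlap. Its log2 level averaged -2.77 ± 0.17 in MSA transgenic and -3.51 ± 0.080 in wild-type samples (SD, n = 3 each). The log2 difference of 0.74 ± 0.12 (SE), or 1.67-fold, was 0.71 within slide 2 and 0.29 under normexp with the offset.

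Among the genes that act on actin, Was and Nckap1l were higher in MSA transgenic samples and Coro1a and Lcp1 differed by less than their standard errors. Was encodes WASP, the activator of Arp2/3 that is mutated in Wiskott-Aldrich syndrome of humans. It gave 95.02, 95.1 and 97.2 units in MSA transgenic samples, against 37.6, 72.1 and 57.5 units in wild-type samples. The MSA transgenic values lay close together and above the spread of the wild-type ones, and the log2 difference was 0.55 ± 0.13 (SE), 0.44 within slide 2 and 0.22 under normexp with the offset.

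Nckap1l encodes HEM1, the blood cell form of a scaffold subunit of the WAVE complex, and its probes did not tell the same story. The brighter probe gave 290, 289 and 313 units in MSA transgenic samples, against 90.5, 182 and 169 units in wild-type samples. Its groups did not overlap, with a log2 difference of 0.80 ± 0.16 (SE), 0.63 within slide 2 and 0.59 under normexp with the offset. The upstream probe gave 146, 130 and 149 units in MSA transgenic samples, against 28.9, 129 and 125 units in wild-type samples. Its groups overlapped, and its log2 difference of 0.59 ± 0.47 (SE) rested on wild-type replicate 1, since within slide 2 it was 0.025.

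Coro1a, the coronin of blood cells that binds actin and restrains Arp2/3, was the brightest signal among the members, at 4012, 4021 and 4327 units in MSA transgenic samples and 2699, 3688 and 3636 units in wild-type samples. Scaling brought these together, to log2 levels of 2.72, 2.76 and 2.84 in MSA transgenic samples and 2.73, 2.71 and 2.76 in wild-type samples. The groups overlapped, and the log2 difference was 0.038 ± 0.077 (SE) over all arrays and 0.036 within slide 2.

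Lcp1 encodes L-plastin, which bundles actin filaments. Its brightest probe gave 405, 409 and 416 units in MSA transgenic samples, against 379, 331 and 348 units in wild-type samples. The log2 difference was -0.059 ± 0.18 (SE) over all arrays and 0.14 within slide 2, because the scaled level of wild-type replicate 1 (-0.096) lay above those of the other wild-type samples (-0.76 and -0.62). Of the other Lcp1 probes, 2 gave log2 differences of -0.0056 ± 0.089 and -0.18 ± 0.20 (SE), and 1 was not well above background on any array. No Lcp1 probe that was well above background separated the genotypes.

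Fermt3, which encodes kindlin-3, is the member that acts on integrins, the adhesion receptors that blood cells must switch on before they can attach. Its signals were 45.1, 33.1 and 40.8 units in MSA transgenic samples, against 6.29, 26.0 and 20.4 units in wild-type samples. The groups did not overlap, but wild-type replicate 1 was not well above background and lay far under the other wild-type samples, at a log2 level of -6.01 beside -4.44 and -4.71. The log2 difference of 1.12 ± 0.42 (SE), or 2.17-fold, was 0.64, or 1.56-fold, within slide 2, and 0.10 under normexp with the offset.

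**Figure D1:**
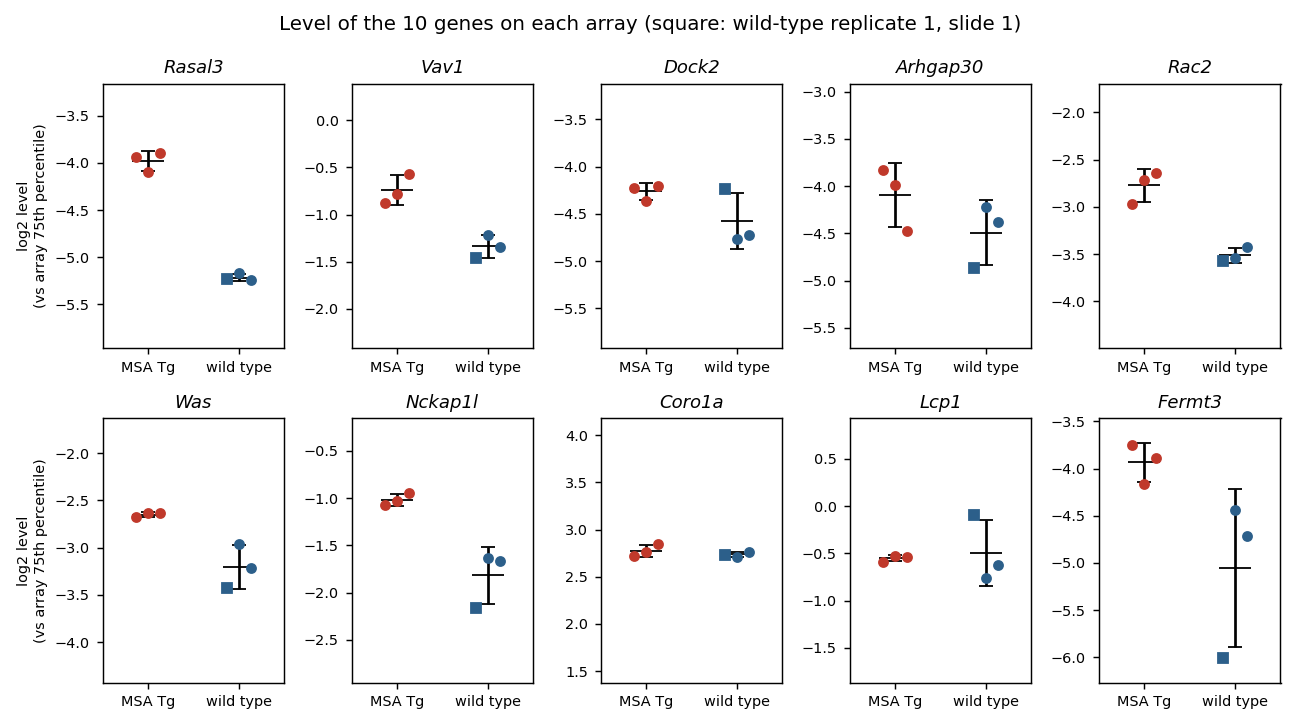
Log2 level of each of the 10 genes on each array, relative to the array's 75th percentile (y axis), for MSA transgenic (left, red) and wild-type samples (right, blue). Every panel covers the same number of log2 units, horizontal lines are means, bars are SD (n = 3 each) and the square is wild-type replicate 1 on slide 1, which lay at -6.01 for Fermt3 and beside the MSA transgenic samples for Dock2.

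Side by side, 9 of the 10 genes had a higher mean in MSA transgenic samples and 1, Lcp1, a lower one. The median of the 10 log2 differences was 0.57, and 0.51 within slide 2, against -0.00047 over all 24932 genes. The groups did not overlap, with MSA transgenic higher, for 6 of the 10 (Rasal3, Was, Vav1, Nckap1l, Rac2 and Fermt3), where 7.39% of all genes were separated in that direction and 7.5% in the other. By limma with Benjamini-Hochberg adjustment over all genes, 11 genes were called at an adjusted p under 0.05 (0.0441%), 9 of them higher (0.0361%) and 2 lower (0.00802%) in MSA transgenic samples, and Rasal3 was the 1 member among them. It was not called when any 1 array was left out. Nothing is read from these counts, since the genes were chosen with this contrast known. Every member with a signal under 100 units in all samples had a smaller difference under normexp with the offset. Over the 10 genes the median was 0.52 under normexp without an offset and 0.16 with it, and Fermt3, for example, had 0.68 without it and 0.10 with it. With the offset, Nckap1l, Vav1, Rac2 and Was had higher differences than Rasal3.

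**Figure D2:**
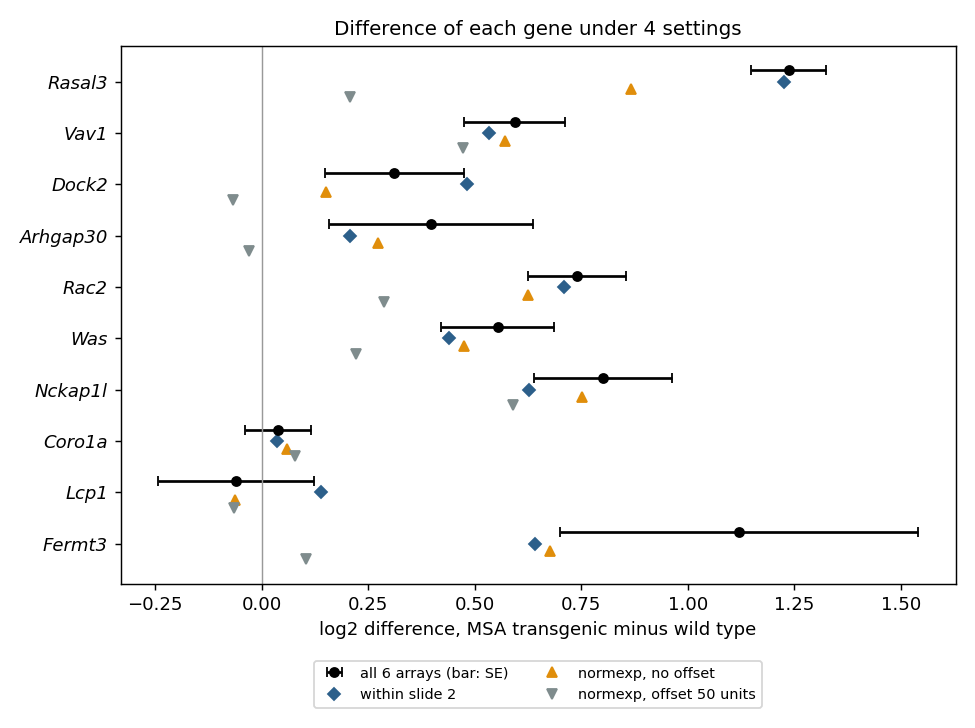
Log2 difference of each of the 10 genes, MSA transgenic minus wild type (x axis), over all 6 arrays with its SE (black, n = 3 each), within slide 2 (blue diamonds), and with normexp background correction without an offset (orange) and with an offset of 50 units (grey). Rasal3 lay at 1.24, 1.23, 0.87 and 0.21, and Coro1a lay near 0 in all settings.

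The broadly expressed relatives of the same genes served as a comparison by family, as they do the same biochemistry in most cells. They were not matched for brightness. The mean log2 level of the 34 tested relatives was 0.87 to 0.97 in MSA transgenic and 0.92 to 1.08 in wild-type samples. That of the 10 members was -2.15 to -2.09 in MSA transgenic and -2.83 to -2.60 in wild-type samples. Rac1, the Rac of most cells, averaged a log2 level of 2.97 ± 0.018 in MSA transgenic and 2.97 ± 0.060 in wild-type samples (SD, n = 3 each), a log2 difference of -0.0049 ± 0.077 (SE) beside the 0.74 of Rac2. Nckap1, the WAVE subunit of most cells, had 0.017 ± 0.081 beside the 0.80 of Nckap1l. Rasal2, a Ras GTPase-activating protein of the same family as Rasal3, had 0.11 ± 0.079 beside 1.24. These 3 relatives lay within 2 of the moderated standard errors of 0. Rasal2 was nevertheless higher in every MSA transgenic sample than in any wild-type sample. Its log2 level averaged -2.25 ± 0.071 in MSA transgenic and -2.37 ± 0.024 in wild-type samples (SD, n = 3 each), a spread smaller than its difference. The contrast depended on the background method. Under normexp with the offset, Rac1, Nckap1 and Rasal2 had 0.048, 0.047 and -0.0051, beside 0.29, 0.59 and 0.21 for Rac2, Nckap1l and Rasal3.

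Among the exchange factors, Dock1 had a log2 difference of -0.022 ± 0.090 (SE), Vav2 of 0.079 ± 0.12 and Vav3 of -0.14 ± 0.20. Among the actin and adhesion genes, Wasl, the N-WASP of most cells, had -0.29 ± 0.17 and Fermt2, or kindlin-2, had -0.23 ± 0.11, both lower in every MSA transgenic sample than in any wild-type sample. Coro1b had -0.063 ± 0.22, Arhgap31 had -0.19 ± 0.22 and Pls3, the plastin of non-blood cells, had 0.0056 ± 0.086. Within slide 2 the log2 differences of Wasl and Fermt2 were -0.099 and -0.14. Without wild-type replicate 1 the sign turned for 5 relatives, which then had 0.054 (Vav3), 0.19 (Coro1b), 0.050 (Arhgap31), 0.032 (Dock1) and -0.017 (Nckap1). None of the 11 relatives was called by limma (smallest adjusted p = 0.82), and none had an unadjusted p under 0.05.

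**Figure D3:**
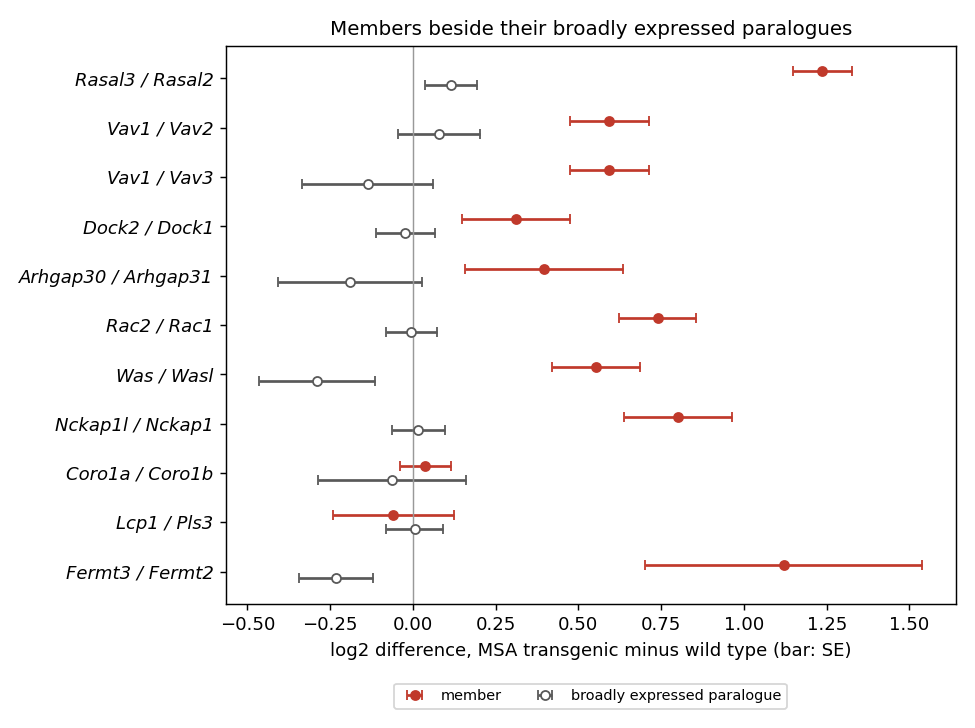
Log2 difference, MSA transgenic minus wild type (x axis), of each gene (red, filled) and of its broadly expressed relative (open) with SE (n = 3 each). The relatives lay between -0.29 (Wasl) and 0.11 (Rasal2).

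Over the whole list of 35 broadly expressed relatives, 34 were tested and Fermt1, a kindlin of epithelia, was well above background on no array. Among the 34, 14 were higher and 20 lower in MSA transgenic samples, with a median log2 difference of -0.028 (0.010 within slide 2). None was called by limma. At an unadjusted p under 0.05, 2 were higher and 2 lower, where 3.15% of all genes were higher and 2.71% lower. The groups did not overlap for 3 higher and 7 lower relatives, where 7.39% of all genes were separated upwards and 7.5% downwards. Coro6, a coronin, was highest at 0.49 ± 0.17 (SE), and Rasal1, a Ras GTPase-activating protein, lowest at -0.40 ± 0.17. Cdc42, the GTPase that activates WASP, had -0.20 ± 0.074, Wasf1, the WAVE protein of neurons, -0.22 ± 0.089, Pls1, a plastin, 0.22 ± 0.090 and Arhgap32, a GTPase-activating protein, -0.33 ± 0.13 (adjusted p = 0.82 by limma for each of these 4).

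A list of 48 other GTPase and actin regulators with roles in blood cells held 47 tested genes, all except Dock8. Not all genes of the list are confined to blood cells (Tmsb4x, Evl, Rap1b and Rhog, for example, are not). Its counts and median are thus not those of blood cell genes alone. Of these, 35 were higher and 12 lower in MSA transgenic samples, with a median log2 difference of 0.22 (0.19 within slide 2, and 0.34 without wild-type replicate 2). None was called by limma, while 19 were higher and 2 lower at an unadjusted p under 0.05, and 21 were separated upwards and 3 downwards. Over all genes, 3.15% were higher and 2.71% lower at that p, with 7.39% separated upwards and 7.5% downwards. The smallest p belonged to Myo1f, a class I myosin of leukocytes, whose log2 level averaged -2.15 ± 0.097 in MSA transgenic and -3.0002 ± 0.081 in wild-type samples (SD, n = 3 each). Its log2 difference of 0.85 ± 0.093 (SE) was the highest of the list and missed the threshold (adjusted p = 0.084, limma). Arpc1b, the Arp2/3 subunit that blood cells depend on, had 0.67 ± 0.10 (adjusted p = 0.19, limma), while its relative Arpc1a, named after its value was seen, had 0.13 ± 0.080.

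In the same list, Apbb1ip, or RIAM, which links Rap1 to integrins, had a log2 difference of 0.63 ± 0.10 (SE). Parvg, the parvin of blood cells, had 0.76 ± 0.14, Arhgap25, a Rac GTPase-activating protein of phagocytes, 0.63 ± 0.12, and Wdfy4, known for cross-presentation in dendritic cells, 0.79 ± 0.15 (adjusted p of 0.22 to 0.28 by limma). All 6 of these genes with the smallest p were thus higher in MSA transgenic samples, none past the threshold. The lowest difference was that of Pstpip1, an adaptor that binds WASP, at -0.74 ± 0.24 (adjusted p = 0.76, limma), on 1 of its 3 probes.

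The list of partners and effectors, which holds what the members act on or are switched on by, had 46 tested genes of 46. Of these, 30 were higher and 16 lower in MSA transgenic samples, with a median log2 difference of 0.074 (0.10 within slide 2). None was called by limma, with 12 higher and 1 lower at an unadjusted p under 0.05, where 3.15% of all genes were higher and 2.71% lower. The Ras genes Hras and Nras had log2 differences of -0.0088 ± 0.12 and -0.12 ± 0.085 (SE), and the WAVE subunits Cyfip1 and Brk1 had 0.0073 ± 0.083 and -0.057 ± 0.093. These 4 were picked from the list after their values were seen. The other WAVE subunits of this list had 0.026 ± 0.080 (Cyfip2), 0.091 ± 0.13 (Abi1), -0.10 ± 0.11 (Abi2) and 0.33 ± 0.093 (Abi3). Abi3 was higher in every MSA transgenic sample than in any wild-type sample (adjusted p = 0.65, limma). Itgb2, the integrin chain of leukocytes that kindlin-3 switches on, had 0.89 ± 0.11 (adjusted p = 0.12, limma). Itgam, its partner chain in microglia, had the lowest value of the list at -0.32 ± 0.12 (adjusted p = 0.82, limma). The Itgam value is that of 1 of its 2 probes, at mean log2 levels of 6.21 in MSA transgenic and 6.53 in wild-type samples. The other Itgam probe is not reported here, so the opposite signs of these chains rest on single probes.

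Among the oxidase genes, whose enzyme Rac2 activates, Cyba had a log2 difference of 0.49 ± 0.077 (SE; adjusted p = 0.19, limma). Cybb, the catalytic subunit, was well above background on all MSA transgenic arrays and on no wild-type array, and so entered only through the former. Its floored ratio of means, as defined for Dock2, was 1.70-fold, with MSA transgenic higher. On the levels as fitted its adjusted p was 0.21 (limma). Its fitted log2 levels averaged -4.91 ± 0.47 in MSA transgenic and -7.02 ± 0.52 in wild-type samples (SD, n = 3 each). The kinase Syk, which acts upstream of Vav1, had 0.58 ± 0.12 (adjusted p = 0.33, limma).

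**Figure D4:**
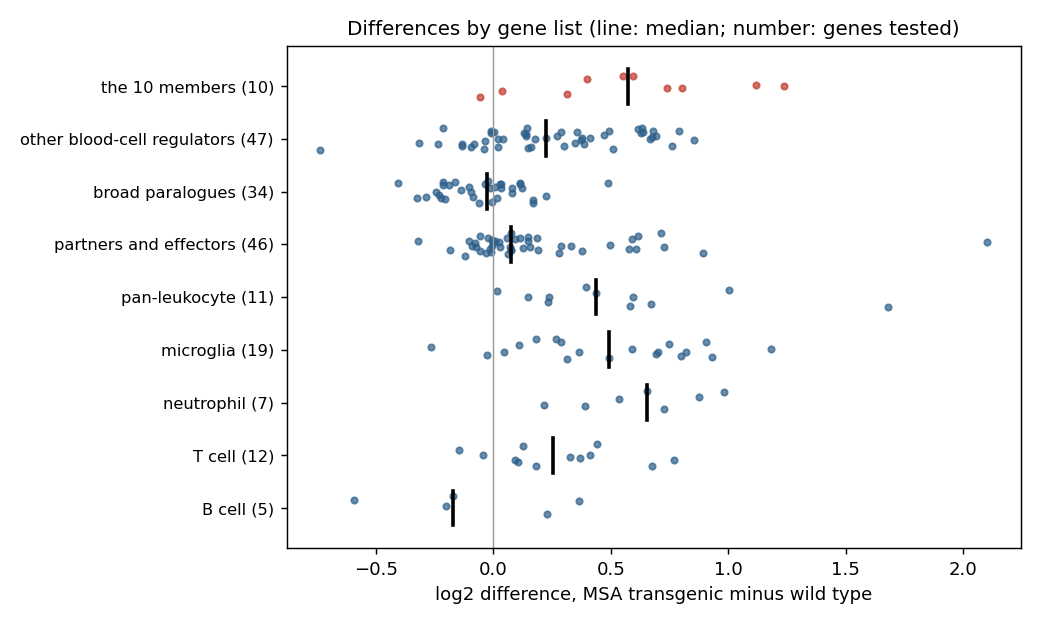
Log2 difference, MSA transgenic minus wild type (x axis), of every tested gene of each list (points), with the list's median (bar) and the number of genes tested in brackets. The medians were 0.57 for the 10 genes, 0.22 for other blood cell regulators, -0.028 for the broadly expressed relatives and 0.074 for partners and effectors. Not all of the other blood cell regulators are confined to blood cells. The point at 2.10 is Cybb, which was well above background on no wild-type array.

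Of 19 microglia markers, all tested, 17 had a higher and 2 a lower mean in MSA transgenic samples. Their median log2 difference was 0.49 (0.49 within slide 2), and their mean log2 level was 1.28 to 1.53 in MSA transgenic and 0.79 to 0.99 in wild-type samples. The log2 differences of the 19 ran from -0.27 to 1.18. As examples, Tyrobp and C1qc had 0.93 and 0.90, and P2ry12, a marker of resting microglia, had 0.046 (-0.078 within slide 2). These examples do not stand for the rest of the list, and P2ry12 is not its only marker of resting microglia. Of 12 markers of all leukocytes 11 were tested and all 11 were higher, with a median of 0.44 (0.42 within slide 2). None of these marker genes was called by limma, with 11 microglia and 7 leukocyte markers higher at an unadjusted p under 0.05, where 3.15% of all genes were. The part of these markers' cells in the members' differences was not tested.

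For other blood cells, all 7 tested neutrophil markers of 10 were higher, with a median of 0.65 (0.49 within slide 2), a mean level of -2.53 to -2.20 in MSA transgenic and -3.44 to -2.59 in wild-type samples, and Cxcr2 not well above background on any array. The 12 tested T cell markers of 14 had a median of 0.25 (0.10 within slide 2), with Cd3g and Cd8a not well above background on any array. The 5 tested B cell markers of 8 had a median of -0.17 (-0.19 within slide 2), with Cd79a and Blk not well above background. Mean levels of the T cell list were -2.94 to -2.77 in MSA transgenic and -3.39 to -2.997 in wild-type samples, and those of the B cell list -3.56 to -3.16 in MSA transgenic and -3.68 to -3.02 in wild-type samples. All 8 border macrophage markers were higher (median 0.35, and 0.25 within slide 2), as were 5 of 5 tested natural killer cell markers (0.26, and 0.0010 within slide 2) and 5 of 5 tested platelet and red cell markers (0.30, and 0.45 within slide 2). Of 6 monocyte markers 2 were higher and 4 lower (-0.044, and 0.052 within slide 2). The median was -0.15 for neuron, -0.29 for oligodendrocyte and 0.070 for astrocyte markers, and -0.13, -0.34 and 0.037 in that order within slide 2. Under normexp with the offset the order of the lists changed. The median was then 0.54 for microglia, 0.26 for all-leukocyte, 0.20 for neutrophil and 0.19 for border macrophage markers. It was 0.14 for platelet and red cell, 0.036 for natural killer cell, -0.051 for T cell, -0.053 for monocyte and -0.19 for B cell markers. The part of these cells in the members' differences was not tested.

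Across the 6 arrays, the members did not all follow Rasal3 equally. The Pearson correlation of log2 level with Rasal3 was 0.95 for Rac2, 0.94 for Vav1, 0.92 for Nckap1l, 0.90 for Was, 0.77 for Fermt3, 0.66 for Dock2, 0.57 for Arhgap30, 0.45 for Coro1a and -0.17 for Lcp1. These are descriptions over 6 points that include both genotypes and both slides, and a gene that separates the genotypes has a high correlation with Rasal3 by construction. The 6 named genes whose levels were most like those of Rasal3 were Cabp2, Csf1r, Oas1a, Lat2, B430319F04Rik and Ccl3, with correlations of 0.994 to 0.996. Csf1r, the growth factor receptor of microglia, had a log2 difference of 0.49 ± 0.078 (SE), and Lat2, an adaptor below immune receptors, had 0.80 ± 0.098. Those most like the mean of the 10 genes were Zfp384, Arpc1b, Ifi30, Ifi35, Ccl4 and Lrrc8d, at 0.990 to 0.995, among them the Arp2/3 subunit Arpc1b described above.

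Along chromosome 17, the 6 nearest tested genes in the RefSeq gene order around Rasal3, looked up after its value was seen, were Akap8, Akap8l, Wiz, Cyp4f17, Cyp4f16 and Cyp4f15. Their log2 differences lay between -0.31 (Cyp4f15) and 0.14 (Akap8), and none was called by limma (smallest adjusted p = 0.82). Around other members some neighbours had differences like those of the member or higher, among them Cyth4 at 0.69 beside Rac2, Adgre1 at 0.58 beside Vav1, Gpr84 at 0.72 beside Nckap1l and Kcnmb1 at 0.83 beside Dock2, also looked up after the members' values were seen. None of the 60 neighbours was called by limma (smallest adjusted p = 0.33).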

How the data were processed

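Total RNA from 6 samples was labelled with Cy3 and hybridised to single-colour Agilent mouse arrays, 1 array per sample. The authors deposited spot values as linear intensity, which their scanner software, Feature Extraction 10.7.1.1 with protocol GE1_107_Sep09, had background-subtracted, per the file headers (version 9.5.1.1 per the submitters' processing notes). The deposited value table holds intensity values too, and at least 99.93% of each column equalled a linear quantile normalization of the same signals within 0.01 log2. Its column median was 59.9, and it served as an alternative.

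Levels are log2 of the processed signal over the 75th percentile of its array. Left out were control spots and, on each array, the 39 to 84 spots flagged as outliers. No spot was saturated, and none on a member's probe was flagged. Of 56605 probes, 32994 were named through RefSeq by accession, 10224 by symbol and 520 by synonym, while 12867 carried only the files' own name. A probe entered if either genotype had it well above background on every array (38463 probes, 14 of the members' 16). The entered probe with the highest mean level stood for its gene (24932 genes, 18104 named in RefSeq). The genotypes were fitted in R 4.3.3 by lmFit and eBayes of limma 3.58.1, with Benjamini-Hochberg adjustment over all genes, and the fit was tested on simulated data. The number of arrays limits the precision. Standard errors are the moderated ones of eBayes, and those of single probes come from a fit over all kept probes.

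The members and lists were chosen with earlier results of these data known. Named were the 10 members with all probes, their nearest broadly expressed relatives, up to 6 genes per list with the smallest p plus the highest and lowest, and the 6 genes most like Rasal3 or the members' mean. Further genes are marked in the text as picked with their values known, and marker genes are named as examples of their list. Some genes that the rule takes are not reported here. Alternatives covered background correction, scaling, the value table, the dim-probe filter, slide as a block, the variance model, the probe per gene and leaving out each sample. Probe coordinates are those of the files (mm9), promoter coordinates those of RefSeq (GRCm38.p6), and no reference genome was used here.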

Additional observations from a re-analysis of the deposited data

How the results depend on the processing

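The count of 11 genes called changed to 29 under normexp background correction with an offset of 50 units, 6 with no filter on dim probes, 23 with probes above background on all 6 arrays, 7 with slide as a block, 27 with an intensity trend in eBayes and 24 when each gene's probes were averaged, and it was 0 to 6 with 1 array left out (0 without MSA transgenic replicate 2, 1 without MSA transgenic replicate 1 or wild-type replicate 3, 4 without MSA transgenic replicate 3 or wild-type replicate 2, 6 without wild-type replicate 1). The count of 1 member called, Rasal3, became 0 under normexp, quantile normalization, the deposited value table, no filter, slide as a block and the intensity trend, and 0 with any 1 array left out. Its log2 difference stayed between 1.17 and 1.30 in every setting but normexp (0.21 with the offset). The members' median was 0.16 under normexp with the offset and 0.51 to 0.66 with 1 array left out. Of 3 alternatives chosen after seeing the data, normexp without an offset gave 21 genes, 0 members and 0.87 for Rasal3 with a members' median of 0.52, while the second probes of Nckap1l and of Lcp1 left both counts as they were. No gene of the 3 lists of regulators, relatives and partners was called in any setting. Dim signals limit Rasal3, Dock2, Arhgap30 and Fermt3. No paired analysis was run. No number in the labels is shared between the genotypes, although each wild-type sample title carries a number adjacent to that of an MSA transgenic one. The labels do not say whether such neighbours are pairs, and the replicate numbers used here only name samples.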
